A study of Mus musculus with 12 samples.

Results

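The genes described here are 9 genes of bone morphogenetic protein (BMP) and transforming growth factor beta (TGF-beta) signalling, Bambi, Thbs1, Id1, Id2, Id3, Smad6, Smad7, Bmpr1a and Tgfbr2, measured in cells of the mouse small-intestinal crypt. They are the rows of a deposited table of read counts whose mouse GENCODE symbol is one of these names, 9 of 55414 rows. All 9 had counts in every library, from 15 counts of Bambi in a wild-type non-Paneth library upwards, and all 9 passed the filter on low counts. They were chosen by their levels and differences between these groups, with no record of which comparison was used, so that their values are given as a description without a p-value. Tests are given for the other genes of the pathway.

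Bulk RNA-seq was made of crypt cells from C57BL/6J mice aged 8 to 12 weeks, in 12 libraries that form 4 groups of 3. WT Paneth and WT non-Paneth cells came from wild-type mice. GRKO Paneth and GRKO non-Paneth cells came from GRvillinKO mice, which lack the glucocorticoid receptor (GR, gene Nr3c1) in villin-expressing cells, that is, in the intestinal epithelium as a whole and not in Paneth cells alone. The Paneth gate took CD24+ cKIT+ events of medium to high side scatter after removal of cells positive for TER119, CD45 or CD31. No source used here gives the non-Paneth gate or says which alleles the wild-type mice carry. The labels name no agent given to the mice and do not say that the libraries of a group came from separate mice, so that the p-values measure the spread between these libraries, which may be technical. Xist, which is transcribed in female cells, had 193 and 214 CPM in the Paneth and non-Paneth libraries of WT replicate 2 and at most 0.427 CPM in the others. Female cells were thus found in WT replicate 2 only, and sex is mixed in the WT groups but not in the GRKO groups. The WT groups therefore held cells of more than a single mouse, and Xist does not show this for the GRKO groups. The genotype was read from the sample titles, since a second field of the records gives another genotype for 6 of the 12 samples.

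Each library held 11126297 to 15910292 counts, and levels are given in CPM, read counts brought to a common library size, after TMM scaling, which divides out differences in composition. Nr3c1 went with the titles, at 40.8, 50.3 and 54.0 CPM in WT Paneth against 7.97, 5.82 and 15.4 in GRKO Paneth cells, and at 110, 126 and 131 in WT non-Paneth against 20.03, 13.1 and 24.5 in GRKO non-Paneth cells. The summed level of 6 Paneth cell markers was 419000 to 646000 CPM over the Paneth libraries and 357 to 1120 over the non-Paneth libraries. Markers of stroma summed to at most 11.4 CPM and markers of endothelium to at most 5.29 CPM in any library, with Lum and Pdgfra at 0 in all 4 groups, and Cdh5 and Kdr likewise. The immune markers summed to 20.5, 31.3 and 4.35 CPM in the GRKO Paneth and to 6.65 to 9.28 CPM in the WT Paneth libraries. Most of the former was Ptprc, which encodes CD45, at 19.0, 28.7 and 2.08 CPM. Of the 8 immune markers 4 were tested, with a median log2 fold change of -1.15 in GRKO against WT Paneth cells. Of these 4, 0 were called by edgeR and 0 by DESeq2. The sum of the tuft cell markers ran from 159 to 435 CPM in the WT and from 404 to 1070 CPM in the GRKO Paneth libraries, and from 3.12 to 8.77 CPM and from 62.8 to 246 CPM in the WT and GRKO non-Paneth libraries. In bulk samples, fewer cells of a type and less RNA per cell cannot be told apart. When library totals alone were used for scaling, the median over all genes of the log2 fold change went from 0.01 to -0.68 for Paneth against non-Paneth cells of WT mice and from -0.08 to -1.05 for those of GRKO mice. For GRKO against WT it went from 0.03 to 0.05 in Paneth and from 0.02 to 0.31 in non-Paneth cells. A direction that this shift turned is named beside its gene.

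BMP and TGF-beta ligands bind pairs of serine/threonine kinase receptors at the cell surface, which phosphorylate Smad proteins that enter the nucleus and switch genes on or off. In the intestine, BMP ligands come largely from the mesenchyme, and their signal is high in the villus and held low around the crypt base, where stem cells and Paneth cells lie. The Id genes, Smad6, Smad7 and Bambi are classical targets of these signals, and Smad6, Smad7 and Bambi in turn dampen them.

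The pattern over the 9 genes was as follows. Bambi and Thbs1 were high in Paneth cells and close to absent in non-Paneth cells, in both genotypes. Id1, Id3 and the inhibitory Smads were lower in Paneth than in non-Paneth cells of both genotypes. Id2 was not called in either genotype, but was called as lower in both when the replicate number was a block. Id1, Id3 and Smad7 were lower and Tgfbr2 was higher in GRKO than in WT non-Paneth cells. In Paneth cells the genotype differences of Id1 and Id3 were not called. A difference between the 2 cell kinds in these genotype effects was not called either. On the log2 scale it was 0.195 (standard error 0.402) for Id1 and 0.28 (standard error 0.372) for Id3. Library totals alone turned it to -0.12 for Id1 and -0.04 for Id3. Without WT Paneth replicate 1 it was called for Id1 and not for Id3. Its highest value in the 20 alternatives was 0.74 for Id1 and 0.72 for Id3. Per kilobase of exonic length, Bambi had the highest mean level of the 9 in WT Paneth cells, at 34.3 ± 5.95 CPM per kb (SD, n = 3), and the lowest in WT non-Paneth cells, at 0.216 ± 0.0735 CPM per kb. In WT Paneth cells it was followed by Id1 (24.4 ± 13.1), Id3 (18.9 ± 8.56), Bmpr1a (7.51 ± 1.27), Thbs1 (7.11 ± 1.14), Id2 (4.39 ± 1.35), Tgfbr2 (1.90 ± 0.0774), Smad7 (1.35 ± 0.417) and Smad6 (0.73 ± 0.21 CPM per kb). Bambi and Id1, Id1 and Id3, Bmpr1a and Thbs1, and Smad7 and Smad6 had ranges of mean ± SD that overlapped. In WT non-Paneth cells Id3 (63.7 ± 11.8) and Id1 (58.0 ± 10.9 CPM per kb) stood highest, with overlapping ranges of mean ± SD, both above Bmpr1a at 10.3 ± 2.16 CPM per kb.

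**Figure D1:**
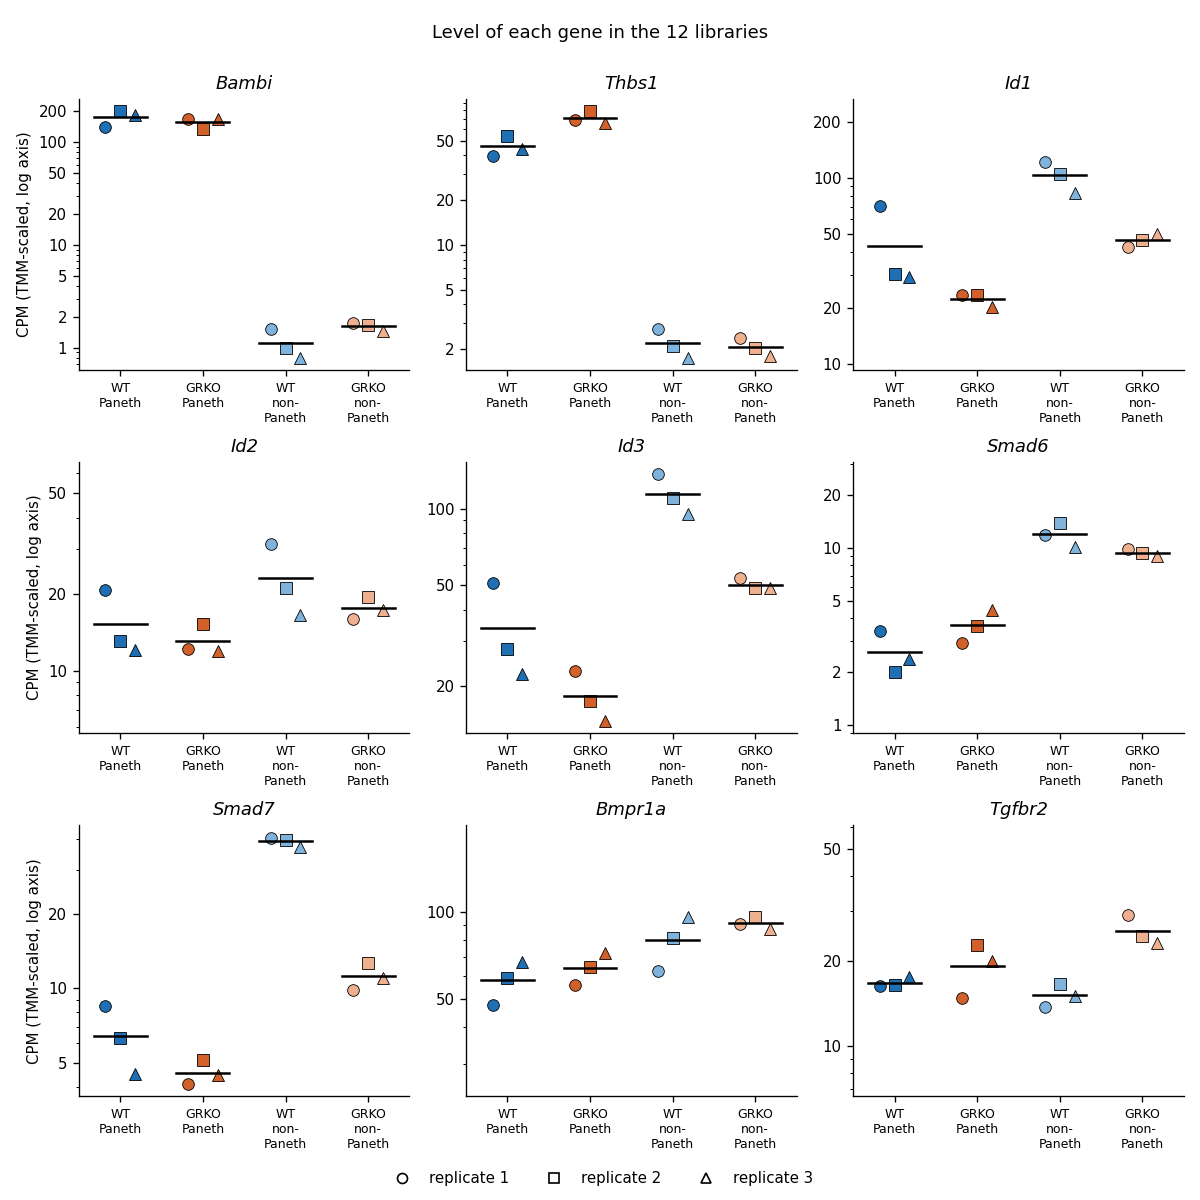
Level of each of the 9 genes in the 12 libraries, in CPM after TMM scaling on log axes, with 1 marker shape per replicate number and a bar at the mean of the 3 libraries of a group. Bambi and Thbs1 stand far apart between the cell kinds, Smad7 sits between 37.2 and 40.6 CPM in WT non-Paneth cells and between 9.83 and 12.6 in GRKO non-Paneth cells, and WT Paneth replicate 1 lies above the other WT Paneth libraries for Id1, Id2 and Id3.

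The positions are those of GRCm39 with the GENCODE vM39 annotation. Bambi (ENSMUSG00000024232) lies on chromosome 18 from 3507871 to 3516404, and Smad7 (ENSMUSG00000025880) on the same chromosome from 75500374 to 75529006, both on the plus strand. Thbs1 (ENSMUSG00000040152) lies on chromosome 2 from 117941974 to 117957616 and Id1 (ENSMUSG00000042745) on the same chromosome from 152566218 to 152579544, both on the plus strand. Smad6 (ENSMUSG00000036867) and Tgfbr2 (ENSMUSG00000032440) lie on the minus strand of chromosome 9, from 63860341 to 63929793 and from 115913361 to 116004800. Id2 (ENSMUSG00000020644) lies on the minus strand of chromosome 12 from 25143798 to 25147282, Id3 (ENSMUSG00000007872) on the plus strand of chromosome 4 from 135870808 to 135873066, and Bmpr1a (ENSMUSG00000021796) on the minus strand of chromosome 14 from 34132687 to 34225379. In 7 of the 9 genes an exon overlaps an lncRNA on the other strand, and those of the lncRNAs that are in the table held at most 7 counts over the 12 libraries. The library kit keeps the strand, and whether the counting used it is not stated.

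Bambi encodes a transmembrane pseudoreceptor that resembles a type I receptor without its kinase and blocks BMP and TGF-beta receptor complexes. Its level was 142, 202 and 184 CPM in WT Paneth and 168, 136 and 167 CPM in GRKO Paneth cells. In WT non-Paneth cells it was 1.53, 0.988 and 0.801 CPM, and in GRKO non-Paneth cells 1.72, 1.68 and 1.47 CPM. Every Paneth library was above every non-Paneth library by far, and within each cell kind the genotypes overlapped. The log2 fold change of Paneth against non-Paneth cells was 7.32 ± 0.224 (SE) in WT and 6.59 ± 0.21 in GRKO cells, that is, 160-fold and 96.3-fold. The non-Paneth level of Bambi was 0.629% of the Paneth level in WT and 1.03% in GRKO cells, against 0.0978% and 0.101% for the Paneth cell gene Lyz1 and 0.107% and 0.152% for Defa24. The part of Paneth cells left in the non-Paneth libraries was not tested. The genotype difference was -0.16 ± 0.155 in Paneth cells and 0.57 ± 0.254 in non-Paneth cells on the log2 scale.

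Thbs1 encodes thrombospondin 1, a secreted matrix protein that can release TGF-beta from its latent complex. It stood at 39.7, 54.0 and 44.0 CPM in WT Paneth cells and at 68.5, 78.9 and 65.8 CPM in GRKO Paneth cells. The 3 GRKO Paneth libraries were all above the 3 WT Paneth libraries. In non-Paneth cells it stood at 2.74, 2.09 and 1.76 CPM in WT and at 2.38, 2.05 and 1.81 CPM in GRKO, and there the genotypes overlapped. The log2 fold change of Paneth against non-Paneth cells was 4.39 ± 0.187 in WT and 5.09 ± 0.186 in GRKO cells. Between the genotypes it was 0.63 ± 0.15 in Paneth cells, where it lay between 0.54 and 0.77 in all 21 alternatives, and -0.07 ± 0.207 in non-Paneth cells, where library totals alone gave 0.21. In the same Paneth libraries the tuft cell markers had a median log2 fold change of 1.37 in GRKO against WT, with 0 of 4 past the threshold of edgeR, 0 of DESeq2 and 2 at an unadjusted p under 0.05. The stem cell markers summed to 7520 to 8070 CPM in WT and 3880 to 5690 CPM in GRKO Paneth cells, with 0 of 5 past the threshold of edgeR, 1 past that of DESeq2 and 2 at an unadjusted p under 0.05. The part of these cells and of any immune cells in the level of Thbs1 was not tested. Leaving out WT Paneth replicate 1 or 3, GRKO Paneth replicate 2 or 3, or any 1 non-Paneth library took Thbs1 out of the genes called between the genotypes in Paneth cells, and it was called in 8 of the 21 alternatives.

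The Id genes encode small helix-loop-helix proteins without a DNA-binding part, which bind the E proteins and keep them from DNA. Id1 was at 70.1, 30.4 and 29.2 CPM in WT Paneth and at 23.4, 23.4 and 20.3 CPM in GRKO Paneth cells. In non-Paneth cells it was at 121, 105 and 82.6 CPM in WT and at 42.7, 46.2 and 50.1 CPM in GRKO. The GRKO libraries were all below the WT libraries of the same cell kind, narrowly so in Paneth cells, where WT replicate 1 stood well above the other 2 WT libraries. GRKO against WT gave a log2 fold change of -1.15 ± 0.278 in non-Paneth cells and -0.96 ± 0.294 in Paneth cells. Without WT Paneth replicate 1, the value in Paneth cells was -0.41. Paneth against non-Paneth cells gave -1.24 ± 0.283 in WT and -1.05 ± 0.289 in GRKO cells.

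Id3 had the pattern closest to that of Id1 among the 9 genes, with a root mean square difference of 0.269 between their centred log2 levels over the 12 libraries. It was at 51.2, 27.9 and 22.2 CPM in WT Paneth and at 22.8, 17.4 and 14.6 CPM in GRKO Paneth cells. In non-Paneth cells it was at 137, 110 and 95.2 CPM in WT and at 53.2, 48.8 and 48.6 CPM in GRKO. The genotypes stood apart in non-Paneth cells and met in Paneth cells, where the highest GRKO library passed the lowest WT library. The log2 fold change of GRKO against WT was -1.18 ± 0.255 in non-Paneth cells and -0.90 ± 0.274 in Paneth cells, or -0.46 without WT Paneth replicate 1. Paneth against non-Paneth cells gave -1.75 ± 0.264 in WT and -1.47 ± 0.27 in GRKO cells.

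Id2 differed less. It was at 20.7, 13.1 and 12.1 CPM in WT Paneth and at 12.2, 15.3 and 11.9 CPM in GRKO Paneth cells, and at 31.6, 21.1 and 16.5 CPM in WT non-Paneth and 16.02, 19.4 and 17.4 CPM in GRKO non-Paneth cells. The genotypes overlapped in both cell kinds. The log2 fold change of GRKO against WT was -0.39 ± 0.228 in non-Paneth and -0.23 ± 0.246 in Paneth cells, and the latter was 0.07 without WT Paneth replicate 1. Paneth against non-Paneth cells gave -0.58 ± 0.237 in WT and -0.42 ± 0.237 in GRKO cells. The GRKO Paneth libraries were all below the GRKO non-Paneth libraries, and the WT cell kinds overlapped.

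The immediate early genes Fos, Fosb, Jun, Junb, Egr1, Atf3, Ier2 and Dusp1, which answer within minutes to handling and other stimuli, moved with genotype in these libraries. In Paneth cells their summed level was 1880, 710 and 615 CPM in WT against 343, 226 and 433 CPM in GRKO. In non-Paneth cells it was 1410, 968 and 749 CPM in WT against 242, 220 and 411 CPM in GRKO. WT Paneth replicate 1 was highest for this sum as it was for Id1, Id2 and Id3 among the Paneth libraries, and within WT non-Paneth cells the sum and the 3 Id genes ranked the 3 libraries alike. The GRKO libraries did not, since the sum was highest in replicate 3 of both cell kinds, where Id3 was lowest and where Id1 was lowest in Paneth and highest in non-Paneth cells. In GRKO non-Paneth cells 6 of the 8 genes fell, among them Fos at -2.51 ± 0.644 (edgeR adjusted p = 0.0151) and Junb at -1.88 ± 0.40 (edgeR adjusted p = 0.00517). In GRKO Paneth cells 0 of the 8 passed the threshold of edgeR, all 8 had an unadjusted p under 0.05, and DESeq2 called 6, with a median log2 fold change of -1.87. Their part in the levels of Id1, Id3 and Smad7 was not tested.

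**Figure D2:**
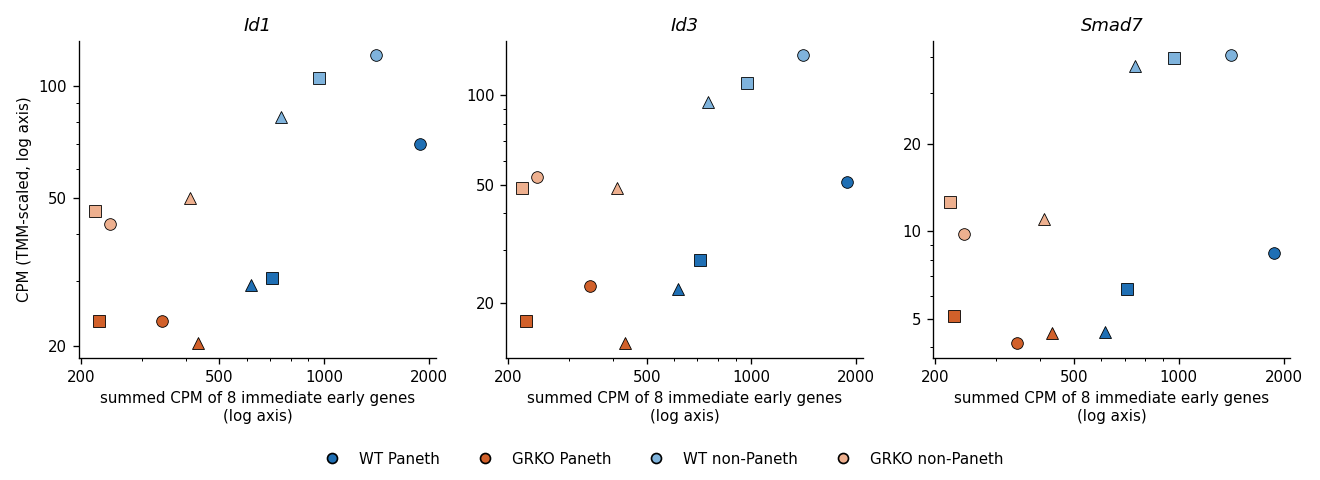
Summed level of 8 immediate early genes (x axis, CPM, log scale) against the level of Id1, Id3 and Smad7 (y axis, CPM, log scale) in the 12 libraries, with colours for the groups and marker shapes for the replicate numbers. The GRKO libraries lie at sums of 220 to 433 CPM and the WT libraries at 615 to 1880 CPM, with WT Paneth replicate 1 farthest to the right.

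The promoters of Id2 and Id3 are shown because Id3 differed between the genotypes and Id2 much less, and those of Smad6 and Tgfbr2 because they are an inhibitor and a receptor of the same pathway. RefSeq promoters were used for 5 of the 9 genes (build GRCm38.p6, with 250 bases before and 50 after the start). Each was found once in GRCm39, at the coordinates given. Id1 and Thbs1 had no entry, and the promoters of Bambi and Smad7 were left out. Capitals mark GGCGCC, a GC-rich element of BMP-responsive genes that reads the same on both strands, GTCTAGAC, the palindromic Smad element, CAGAC or its complement GTCTG, a Smad half-element, and AGAACA or its complement TGTTCT, a half-site of the glucocorticoid receptor. Both strands were searched, and no 2 of these elements overlapped in the sequences below.
Id3, chr4:135870883-135871182, plus strand: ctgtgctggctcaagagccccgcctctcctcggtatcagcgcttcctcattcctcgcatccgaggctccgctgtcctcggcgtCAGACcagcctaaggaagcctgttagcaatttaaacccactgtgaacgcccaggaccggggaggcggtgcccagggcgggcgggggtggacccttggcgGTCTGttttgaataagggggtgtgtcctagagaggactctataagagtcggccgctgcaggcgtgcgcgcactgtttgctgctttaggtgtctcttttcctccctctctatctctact
Id2, chr12:25146042-25146341, minus strand: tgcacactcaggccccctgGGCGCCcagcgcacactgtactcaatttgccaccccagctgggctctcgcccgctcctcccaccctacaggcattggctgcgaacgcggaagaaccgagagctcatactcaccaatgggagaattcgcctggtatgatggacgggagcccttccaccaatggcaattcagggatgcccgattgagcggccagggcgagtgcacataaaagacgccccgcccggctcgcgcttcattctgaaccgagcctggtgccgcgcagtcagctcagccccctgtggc
Smad6, chr9:63929292-63929591, minus strand: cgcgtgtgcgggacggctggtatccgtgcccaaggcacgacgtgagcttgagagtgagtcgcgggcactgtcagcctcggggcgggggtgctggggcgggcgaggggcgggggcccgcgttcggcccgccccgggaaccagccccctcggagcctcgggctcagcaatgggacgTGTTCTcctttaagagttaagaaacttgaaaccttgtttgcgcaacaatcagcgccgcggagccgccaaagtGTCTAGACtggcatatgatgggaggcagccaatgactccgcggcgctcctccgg
Tgfbr2, chr9:116004382-116004681, minus strand: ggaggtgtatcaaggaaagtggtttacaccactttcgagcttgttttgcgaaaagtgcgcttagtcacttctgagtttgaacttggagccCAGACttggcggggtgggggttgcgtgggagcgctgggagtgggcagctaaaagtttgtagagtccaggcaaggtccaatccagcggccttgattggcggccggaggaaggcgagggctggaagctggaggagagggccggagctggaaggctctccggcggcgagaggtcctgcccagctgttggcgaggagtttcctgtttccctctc

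Of all 32851 promoters of this length, 11.9% held GGCGCC, 0.213% GTCTAGAC, 49.6% CAGAC or GTCTG, and 19% AGAACA or TGTTCT. Id2 held 1 GGCGCC and none of the others, Id3 held 2 copies of CAGAC or GTCTG, Tgfbr2 held 1 such copy, and Smad6 held 1 GTCTAGAC and 1 TGTTCT. The promoter of Bmpr1a held 1 GGCGCC. These are matches of letters within the windows and say nothing of what binds there.

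Smad6 and Smad7 are the inhibitory Smads, which compete with the receptor Smads and recruit ubiquitin ligases to the receptors, Smad6 mainly for BMP and Smad7 for both branches. Smad7 stood at 40.6, 39.7 and 37.2 CPM in WT non-Paneth cells and at 9.83, 12.6 and 11.03 CPM in GRKO non-Paneth cells. The WT libraries spanned a narrow range far above the GRKO libraries. In Paneth cells it stood at 8.45, 6.31 and 4.50 CPM in WT and at 4.11, 5.11 and 4.45 CPM in GRKO, with the genotypes overlapping. Smad7 differed between GRKO and WT by a log2 fold change of -1.81 ± 0.175 in non-Paneth cells, a 3.5-fold lower level, and -0.50 ± 0.213 in Paneth cells. The difference between these 2 values was 1.31 ± 0.275, and it lay between 1.03 and 1.57 in all 20 alternatives. Paneth against non-Paneth cells gave -2.59 ± 0.192 in WT and -1.28 ± 0.197 in GRKO cells.

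Smad6 was low throughout. It stood at 3.42, 1.98 and 2.37 CPM in WT Paneth and at 2.90, 3.61 and 4.45 CPM in GRKO Paneth cells, from 16 counts upwards. In non-Paneth cells it stood at 11.9, 13.9 and 10.1 CPM in WT and at 9.88, 9.39 and 9.003 CPM in GRKO. Every non-Paneth library was above every Paneth library, the genotypes overlapped in Paneth cells, and in non-Paneth cells the WT libraries were all slightly above the GRKO libraries. The log2 fold change of Paneth against non-Paneth cells was -2.19 ± 0.233 in WT and -1.35 ± 0.22 in GRKO cells. GRKO against WT gave 0.49 ± 0.254 in Paneth and -0.35 ± 0.197 in non-Paneth cells.

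Bmpr1a encodes a type I BMP receptor and Tgfbr2 the type II TGF-beta receptor. Bmpr1a stood at 47.9, 59.2 and 67.5 CPM in WT Paneth and at 55.9, 64.5 and 72.4 CPM in GRKO Paneth cells. The WT non-Paneth libraries had 62.6, 81.6 and 96.1 CPM and the GRKO non-Paneth libraries 91.0, 96.4 and 87.4 CPM. The genotypes overlapped in both cell kinds, and the GRKO Paneth libraries were below the GRKO non-Paneth libraries. Its log2 fold change of Paneth against non-Paneth cells was -0.46 ± 0.162 in WT and -0.51 ± 0.161 in GRKO cells, and that of GRKO against WT was 0.14 ± 0.163 in Paneth and 0.19 ± 0.159 in non-Paneth cells.

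Tgfbr2 stood at 16.2, 16.4 and 17.5 CPM in WT Paneth and at 14.7, 22.7 and 20.1 CPM in GRKO Paneth cells. In non-Paneth cells it stood at 13.7, 16.6 and 15.0 CPM in WT and at 29.2, 24.5 and 23.2 CPM in GRKO. The 3 GRKO non-Paneth libraries were above all 9 others, and the genotypes overlapped in Paneth cells. GRKO against WT gave a log2 fold change of 0.76 ± 0.156 in non-Paneth and 0.20 ± 0.164 in Paneth cells. Paneth against non-Paneth cells gave 0.15 ± 0.163 in WT, which library totals alone turned to -0.55, and -0.41 ± 0.158 in GRKO cells.

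**Figure D3:**
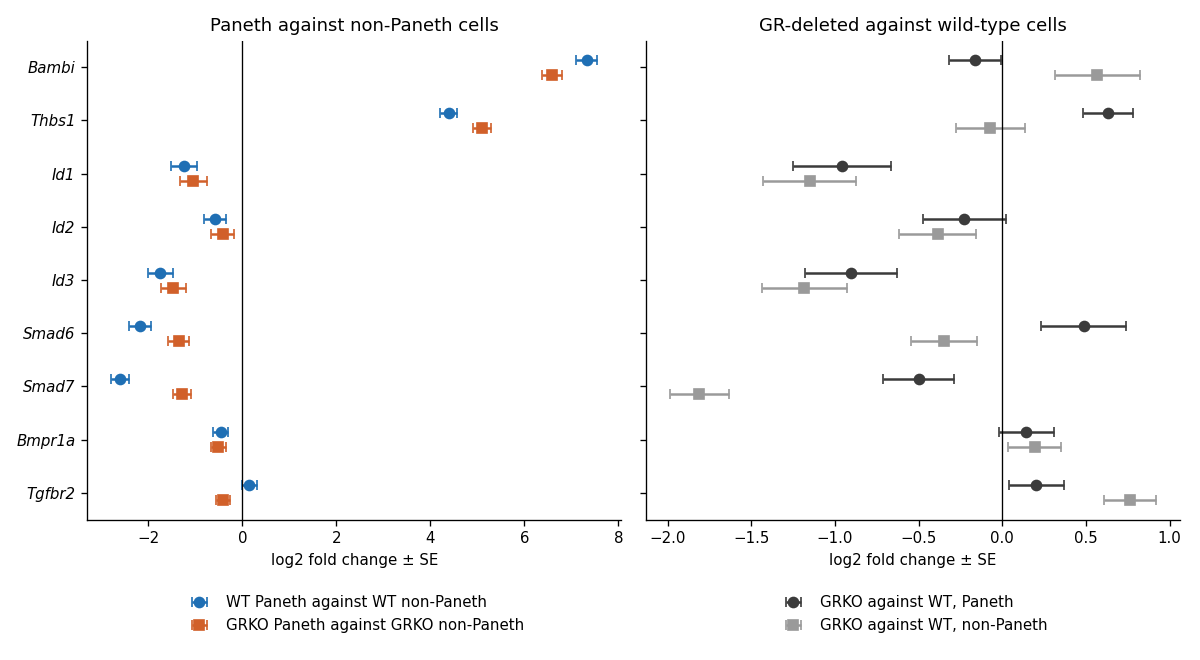
Log2 fold change of each gene with its standard error as a bar, on the left for Paneth against non-Paneth cells in WT and GRKO mice and on the right for GRKO against WT in Paneth and non-Paneth cells. Each compares 3 with 3 libraries within the fit of all 12, and the standard error comes from the F of that fit. On the left, Bambi and Thbs1 lie far to the right of 0, between 4.39 and 7.32, and on the right Smad7 in non-Paneth cells lies farthest from 0, at -1.81.

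By the threshold used for all genes (edgeR, 5% false discovery rate), 7 of the 9 genes were called between WT Paneth and WT non-Paneth cells, 2 higher and 5 lower, where 50.7% of 13057 genes tested were called, 24% higher and 26.7% lower. With the replicate number as a block, which pairs these libraries, Id2 was also called, which makes 8. Between GRKO Paneth and GRKO non-Paneth cells 8 were called, 2 higher and 6 lower, against 39.2% of all genes, 17.9% higher and 21.2% lower. Leaving out any 1 GRKO non-Paneth library gave 5, without Id1, Bmpr1a and Tgfbr2, and DESeq2 gave 7. Tgfbr2 was called there in 4 and Bmpr1a in 14 of the 21 alternatives, and in WT cells Bmpr1a in 11. Between GRKO and WT Paneth cells 1 was called, Thbs1, which was higher, against 3.22% of all genes, 1.7% higher and 1.52% lower. DESeq2 and the fit without a filter called 3, adding Id1 and Id3 as lower. Leaving out WT Paneth replicate 3 called Id1 and Id3 without Thbs1, and leaving out GRKO Paneth replicate 1 called Thbs1 and Id3. Between GRKO and WT non-Paneth cells 4 were called, with Tgfbr2 higher and Id1, Id3 and Smad7 lower, against 37.3% of all genes, 17.5% higher and 19.8% lower. The difference between the genotype effects in the 2 cell kinds was called for Smad7, against 18.7% of all genes, 11.5% with a positive and 7.27% with a negative difference. It was called in 3 of the 20 alternatives each for Bambi and Thbs1. For Id1 and Smad6 it was called in 1, without WT Paneth replicate 1. Without both libraries of WT replicate 2, Bmpr1a was no longer called between the WT cell kinds, Tgfbr2 between the GRKO cell kinds and Thbs1 between the genotypes in Paneth cells, and the other calls of the 9 genes stayed. The choice of the 9 genes rests on these same values, so that nothing is read from these counts. By library totals alone the genes called between WT Paneth and WT non-Paneth cells were 1097 higher and 7895 lower, against 3133 and 3491 with TMM scaling, and between GRKO and WT non-Paneth cells 4345 higher and 1478 lower, against 2283 and 2586. For the difference between the genotype effects, they were 751 higher and 1836 lower, against 1496 and 949.

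The markers of other cells also differed between WT and GRKO non-Paneth cells, where Smad7, Id1, Id3 and Tgfbr2 were called. The summed level of 8 enterocyte markers was 19500 to 22300 CPM in WT and 4120 to 5190 CPM in GRKO non-Paneth cells, and 3 of the 8 fell by edgeR, with 6 called by DESeq2 and all 8 at an unadjusted p under 0.05. All 4 tuft cell markers and all 4 proliferation markers rose, the latter from a sum of 569 to 642 CPM to a sum of 970 to 1040 CPM, as did 3 of the 5 stem cell markers. The stroma markers summed to 2.4 to 7 CPM in WT and 8.8 to 11.4 CPM in GRKO, with 1 of 9 tested. The part of these cells in the levels of the 9 genes was not tested.

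Beside these genes, 98 other genes of the pathways were looked up by role, of which 54 passed the filter on low counts. Of the other 44, 19 had no count in any of the 12 libraries, which allows up to 0.0182 CPM over all libraries, counting error only. They include Grem1, an antagonist made by the muscle and fibroblasts below the crypt, and Inhba, an activin subunit. Bmp4 and Bmp5, BMP ligands of the mesenchyme, had 8 counts and 1 count in all, and Nog, the antagonist noggin, had 2.

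Between WT Paneth and WT non-Paneth cells 34 of the 54 genes were called, or 63%, against 50.7% of all genes. They were 16 higher and 18 lower, or 9 and 31 by library totals alone. Enterocyte markers moved with this comparison, with sums of 422 to 1570 CPM in Paneth and 19500 to 22300 CPM in non-Paneth cells and all 8 lower at a median log2 fold change of -5.45, and so did all 5 enteroendocrine markers, which were lower. All 4 tuft cell markers (median 5.85) and all 5 stem cell markers (median 1.21) were higher in WT Paneth cells. The part of all these cells in the levels of the pathway genes and of the 9 genes was not tested. The median log2 fold change of the 54 genes was -0.05, against 0.01 for all genes. Of 8 ligands tested, 3 were higher and 3 lower in Paneth cells. Bmp7 had 37.6, 58.3 and 56.1 CPM in Paneth against 7.70, 6.86 and 6.25 CPM in non-Paneth cells, a log2 fold change of 2.87 ± 0.167 (edgeR adjusted p = 5.98e-09). Tgfb1, which encodes TGF-beta 1, had 5.60, 5.07 and 4.38 against 0.573, 0.291 and 0.427 CPM (3.53 ± 0.334, edgeR adjusted p = 4.59e-07). Bmp8a was the reverse, at 0.380, 0.989 and 0.473 against 5.09, 6.16 and 8.44 CPM (-3.44 ± 0.447, edgeR adjusted p = 1.19e-05). Of 10 receptors and co-receptors, 5 were higher and 2 lower. Acvr1c, the type I receptor ALK7, rose by 2.44 ± 0.242 (edgeR adjusted p = 8.65e-07), and Rgmb, a BMP co-receptor, had 172 to 253 CPM in Paneth against 68.7 to 77.9 CPM in non-Paneth cells (1.48 ± 0.137, edgeR adjusted p = 3.46e-07).

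Of the 6 Smads that carry the signal, 0 were higher and 2 lower in WT Paneth cells, among them Smad4, the partner common to both branches, which fell by 0.51 on the log2 scale (SE 0.152, edgeR adjusted p = 0.0105). Its call was lost without WT non-Paneth replicate 2 or 3 (highest edgeR adjusted p = 0.108). Of 6 extracellular antagonists 2 were higher and 1 lower, the latter Nbl1 (-3.64 ± 0.773, edgeR adjusted p = 0.00329). Of 5 genes of TGF-beta storage and activation 2 were higher and 3 lower, and Bmp1, a protease that processes procollagen and BMP antagonists, fell by 2.99 (SE 0.349, edgeR adjusted p = 1.3e-05). Of 11 intracellular inhibitors 1 was higher and 5 lower. Skil, which encodes the co-repressor SnoN, had 13.9, 20.9 and 26.0 CPM in Paneth against 57.8, 71.1 and 74.3 CPM in non-Paneth cells (-1.75 ± 0.198, edgeR adjusted p = 3.25e-06). Among 5 further targets, Tgfbi had 8.04 to 18.9 against 186 to 214 CPM (-3.94 ± 0.369, edgeR adjusted p = 6e-06), and Cdkn2b, a cell cycle inhibitor, had 4.46 to 18.4 against 67.9 to 80.1 CPM (-2.78 ± 0.38, edgeR adjusted p = 0.000122). Atoh8 was higher in Paneth cells (2.24 ± 0.355, edgeR adjusted p = 8.96e-05). Of the 3 E proteins, the partners of the Id proteins, Tcf12 and Tcf4 were higher in Paneth cells, by 1.20 ± 0.14 (edgeR adjusted p = 3.9e-06) and 0.83 ± 0.159 (edgeR adjusted p = 0.000449). The call of Tcf4 was lost by library totals alone (edgeR adjusted p = 0.545). The third, Tcf3, did not pass.

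The libraries of the GRKO cells are not shared with the WT comparison, but both comparisons come from the same fit of all 12 libraries. In the GRKO cells 25 of the 54 were called between the cell kinds, or 46.3%, against 39.2% of all genes. They were 14 higher and 11 lower, or 6 and 37 by library totals alone. In the same Paneth cells 7 of the 8 enterocyte markers were lower, and all 4 tuft cell and 2 of the 5 stem cell markers were higher. The part of these cells was not tested. Bmp7 was higher in Paneth cells by 2.56 ± 0.16 (edgeR adjusted p = 1.79e-08) and Acvr1c by 3.08 ± 0.244 (edgeR adjusted p = 2.31e-07). Tgfbi was lower by a log2 fold change of -2.48 ± 0.353 (edgeR adjusted p = 0.000258), Bmp1 by -1.08 ± 0.354 (edgeR adjusted p = 0.0283) and Cdkn2b by -1.14 ± 0.358 (edgeR adjusted p = 0.0273). The call of Bmp1 was lost in 7 of the 21 alternatives (highest edgeR adjusted p = 0.115), among them each that left out 1 GRKO library or WT non-Paneth replicate 2. That of Cdkn2b was lost in 6 (highest edgeR adjusted p = 0.0957), with the replicate block and without any 1 GRKO library other than Paneth replicate 2. Bmp2, lower in Paneth cells of WT mice at -0.85 ± 0.219 (edgeR adjusted p = 0.00446), was higher in Paneth cells of GRKO mice at 0.66 ± 0.21 (edgeR adjusted p = 0.0206), and library totals alone turned the latter to -0.31. Without GRKO Paneth replicate 2 the call of Bmp2 in GRKO cells was lost. The values of Rgmb and Tcf4 in GRKO cells, 0.69 and 0.69, were turned in the same way to -0.28 and -0.28.

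Between GRKO and WT Paneth cells 1 of the 54 genes was called, or 1.85%, against 3.22% of all genes. It was Tgif1, a co-repressor of Smad proteins, which had 74.6, 52.6 and 53.1 CPM in WT and 41.0, 41.2 and 40.9 CPM in GRKO Paneth cells, a log2 fold change of -0.55 ± 0.142 (edgeR adjusted p = 0.0483). The GRKO libraries were all below the WT libraries, but the call was lost in 13 of the 21 alternatives. Among these was each in which 1 library other than WT Paneth replicate 3 or GRKO Paneth replicate 1 was left out. Over all 21 alternatives, with and without the call, the edgeR or DESeq2 adjusted p ran from 0.0107 to 0.224.

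Between GRKO and WT non-Paneth cells 20 of the 54 were called, or 37%, against 37.3% of all genes. They were 11 higher and 9 lower, or 15 and 6 by library totals alone. Of the 8 ligands 2 were higher and 3 lower. Bmp8a fell to 1.35, 2.22 and 1.03 CPM (-2.09 ± 0.357, edgeR adjusted p = 0.000439), Bmp2 was at 11.8, 11.97 and 10.1 CPM in WT and 7.83, 6.92 and 6.50 CPM in GRKO (-0.67 ± 0.205, edgeR adjusted p = 0.018), and Bmp7 rose to 11.3, 11.5 and 12.1 CPM (0.74 ± 0.164, edgeR adjusted p = 0.00265). Tgfbr1, the type I partner of Tgfbr2, had 15.1, 19.5 and 20.5 CPM in WT and 27.5, 26.4 and 30.1 CPM in GRKO (0.61 ± 0.19, edgeR adjusted p = 0.0213), and with the co-receptors Rgma and Rgmb it makes 3 of 10 receptors and co-receptors that rose, with 0 that fell. Of the 6 signal-carrying Smads 0 were called by edgeR and 0 by DESeq2, with 0 at an unadjusted p under 0.05, and their median log2 fold change was 0.05.

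Among the inhibitors and targets of the same comparison, Skil fell to 31.4, 28.4 and 25.6 CPM (-1.25 ± 0.188, edgeR adjusted p = 0.000182) and Tgif2 rose by 1.10 ± 0.293 (edgeR adjusted p = 0.00878), with 2 of 11 higher and 2 lower. Tgfbi fell to 74.7, 59.7 and 63.2 CPM (-1.58 ± 0.322, edgeR adjusted p = 0.00332) and Cdkn2b to 38.9, 33.9 and 33.4 CPM (-1.09 ± 0.338, edgeR adjusted p = 0.0275), 2 of 5 further targets. Bmp1 had 59.0, 41.1 and 19.1 CPM in WT and 8.24, 8.47 and 9.35 CPM in GRKO (-2.19 ± 0.314, edgeR adjusted p = 0.000243). Twsg1 and Fstl1, secreted modulators of BMP ligands, rose by 0.58 ± 0.138 (edgeR adjusted p = 0.00426) and 0.98 ± 0.274 (edgeR adjusted p = 0.0115). The E proteins Tcf12 and Tcf3 rose by 0.48 ± 0.138 (edgeR adjusted p = 0.0128) and 0.47 ± 0.131 (edgeR adjusted p = 0.0107), while Id1 and Id3 stood lower. Leaving out 1 of the 6 libraries compared ended some of these calls. Those of Cdkn2b, Tcf3 and Fstl1 were each lost in 4 of the 21 alternatives (highest edgeR adjusted p = 0.0654, 0.0954 and 0.0813), those of Tgfbr1 and Tcf12 in 3 (0.116 and 0.0663), those of Tgif2 and Bmp2 in 2 (0.0621 and 0.147), and that of Rgmb in 6, without any 1 of the 6 (0.137). The calls were lost without WT replicate 1 for Cdkn2b, Tgfbr1 and Tcf12, without WT replicate 2 for Cdkn2b, Tcf3, Fstl1 and Tgif2, and without WT replicate 3 for Tcf3, Fstl1, Tcf12 and Tgif2. They were lost without GRKO replicate 1 for Tcf3, Tgfbr1 and Tcf12, without GRKO replicate 2 for Cdkn2b, and without GRKO replicate 3 for Cdkn2b, Tcf3, Fstl1 and Tgfbr1. Bmp2 lost its call by library totals alone and without both libraries of WT replicate 2.

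**Figure D4:**
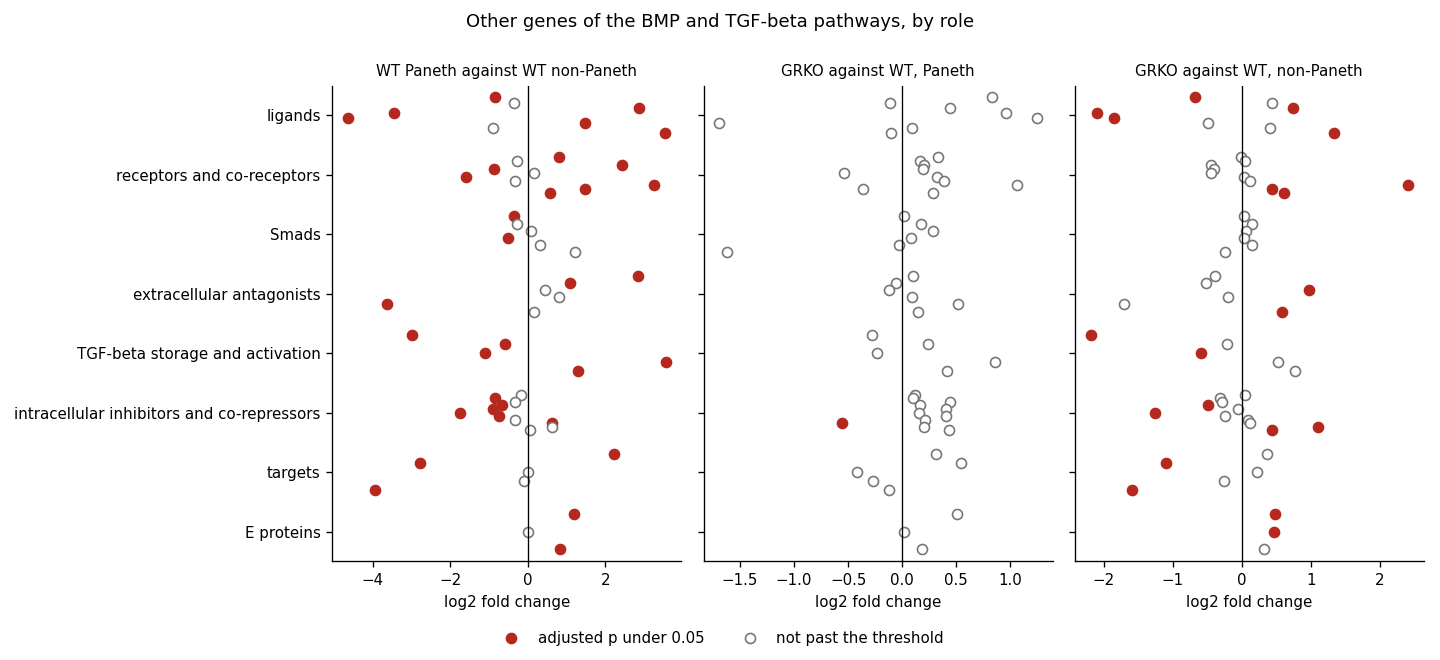
Log2 fold change of the 54 other pathway genes that passed the filter on low counts, 1 point per gene, in rows by role, for WT Paneth against WT non-Paneth cells and for GRKO against WT in each cell kind, with filled points past the threshold of edgeR. The panels have their own x axes. In the middle panel 1 point is filled, against 34 on the left and 20 on the right.

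The genes most like each of the 9 in their pattern over the 12 libraries were named by the root mean square difference of centred log2 levels. The nearest gene was Defa42 for Bambi (0.289), Klhdc8a for Thbs1 (0.251), Ano9 for Id1 (0.0775), Pex6 for Id2 (0.162), Adck5 for Id3 (0.23), Cds1 for Smad6 (0.248), Clcn2 for Smad7 (0.21), Fmr1 for Bmpr1a (0.0635) and Kdm2b for Tgfbr2 (0.107). Bambi's own levels spread by 3.43 and those of Bmpr1a by 0.316 on this scale, so that the distances of the 2 are not on the same footing. Smad4 was the third nearest to Bmpr1a, at 0.091.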

How the data were processed

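Stranded TruSeq libraries were sequenced single-end, and the authors trimmed reads with Trimmomatic 0.39, aligned them with STAR 2.7.10a to mm39, and counted reads per gene during alignment. The deposited values are raw counts, whole numbers without normalization. Reads that map to several places or genes are not in such counts. The totals of 11126297 to 15910292 counts per library set the precision, and low levels such as Bambi in non-Paneth cells rest on few reads. No library was left out, and no column lacked a sample. Symbols came from GENCODE vM39, which named 54742 of the 55414 rows.

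The test was that of edgeR 4.0.16 under R 4.3.3 (TMM, filterByExpr, glmQLFit with robust estimates, glmQLFTest), with 1 mean per group over all 12 libraries and a false discovery rate of 5% over 13057 genes. The SE of a log2 fold change was not a separate estimate. It was the absolute log2 fold change over the square root of the quasi-likelihood F of this fit. CPM used the TMM factors, and centred log2 levels a prior count of 2. The procedure was tested on simulated data. The comparisons were Paneth against non-Paneth cells in each genotype, GRKO against WT in each cell kind, and the difference between the last 2. The alternatives were DESeq2 1.42.0, RLE factors, library totals only, TMM without Lyz1 and the Defa genes, no filter, at least 10 counts in every library of 1 group, only the groups compared, a replicate block, each library left out, and WT replicate 2 left out in both cell kinds, since Xist had 193 and 214 CPM there and at most 0.427 CPM in the other libraries.

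The 9 genes, the lists and the rules were chosen with earlier results of these data known. Named pathway genes were drawn, per comparison and role, from up to 3 genes past the threshold with no overlap of the groups and a mean of at least 5 CPM in a group compared, by size of the log2 fold change. A few more were named after their values were seen: Rgma, Bmp2 and Tcf3 between the WT cell kinds, and the genes without a test. To look for duplicated libraries, the chi-square per degree of freedom of 2 libraries of a group lay between 13.2 and 50.4. Same-numbered WT libraries of the 2 cell kinds deviated together, with correlations of 0.349, 0.229 and 0.238, all above the limit of 0.1, so that the numbers pair these libraries. For the GRKO libraries the correlations were 0.0129, 0.262 and 0.465, and the first did not pass the limit.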

Additional observations from a re-analysis of the deposited data

Results flagged for a closer look

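By the interaction of genotype and cell kind in edgeR (5% false discovery rate), the genotype effects in Paneth and non-Paneth cells differed for 9 other pathway genes given here. Smad7, which was chosen with such values known, is set beside them without a test. The value is the log2 fold change of GRKO against WT in Paneth cells minus that in non-Paneth cells. For Smad7 it was 1.31 ± 0.275, given as a description, with 37.2 to 40.6 CPM in WT non-Paneth, 9.83 to 12.6 in GRKO non-Paneth and 4.11 to 8.45 CPM in the Paneth libraries. Among the ligands it was 3.05 ± 0.628 for Bmp8a (edgeR adjusted p = 0.00466), 1.51 ± 0.303 for Bmp2 (edgeR adjusted p = 0.00404) and -1.44 ± 0.443 for Tgfb1 (edgeR adjusted p = 0.0347). For the co-receptor Rgmb it was -0.80 ± 0.19 (edgeR adjusted p = 0.0102), for the protease Bmp1 1.91 ± 0.497 (edgeR adjusted p = 0.0198) and for the target Cdkn2b 1.64 ± 0.514 (edgeR adjusted p = 0.0496). Among the intracellular inhibitors it was 1.41 ± 0.275 for Skil (edgeR adjusted p = 0.00353), -0.67 ± 0.198 for Tgif1 (edgeR adjusted p = 0.0291) and 0.65 ± 0.189 for the phosphatase gene Ppm1a (edgeR adjusted p = 0.0276). In all, 10 of the 54 other pathway genes were called, or 18.5%, against 18.7% of all genes. Bmp8a in every WT Paneth and Tgfb1 in every WT non-Paneth library stood under 1 CPM, so that both differences rest on few reads. There 1 count is worth 0.0949 to 0.124 CPM in WT Paneth and 0.0534 to 0.0636 CPM in WT non-Paneth libraries. The calls of Cdkn2b and Tgfb1 were lost in 10 of the 20 alternatives (highest edgeR adjusted p = 0.118 and 0.13), that of Tgif1 in 9 (0.0928), that of Bmp1 in 3 (0.0631) and that of Ppm1a in 2 (0.184). Leaving out any 1 non-Paneth library ended the call of Cdkn2b, and any 1 but WT replicate 1 that of Tgfb1 and Tgif1. Leaving out 1 Paneth library ended it without WT replicate 1 for Tgfb1 and Tgif1, WT replicate 2 for Tgfb1, WT replicate 3 for Cdkn2b and Bmp1, GRKO replicate 1 for Cdkn2b, GRKO replicate 2 for Cdkn2b, Tgif1, Bmp1 and Ppm1a, and GRKO replicate 3 for Tgfb1 and Tgif1.

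Bmp2 had 4.37, 7.17 and 7.45 CPM in WT Paneth and 10.99, 13.8 and 8.80 CPM in GRKO Paneth cells, against 11.8, 11.97 and 10.1 CPM in WT and 7.83, 6.92 and 6.50 CPM in GRKO non-Paneth cells. All GRKO libraries were above the WT libraries in Paneth cells and below them in non-Paneth cells. The enterocyte, tuft, proliferation and immediate early markers described above differed between the genotypes in the same non-Paneth libraries, and their part in these differences was not tested.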

How the results depend on the processing

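The log2 fold changes of Bambi, Thbs1, Id1, Id3, Smad6 and Smad7 between the cell kinds, and those of Id1, Id3, Smad7 and Tgfbr2 between GRKO and WT non-Paneth cells, kept their direction in all 21 alternatives. The comparison that hung on the processing was GRKO against WT Paneth cells, with 420 genes and 1 pathway gene called. Library totals only gave 2 and 0, only the groups compared 0 and 0 (2341 genes at an unadjusted p under 0.05), DESeq2 1421 and 4, no filter 1780 and 5, and leaving out both libraries of WT replicate 2 gave 1 and 0. At least 10 counts in every library of 1 group gave 2 pathway genes. Leaving out 1 library gave 0 to 1619 genes and 0 to 6 pathway genes, from 0 genes without GRKO Paneth replicate 2 and 1 gene without either WT Paneth replicate 1 or GRKO non-Paneth replicate 2, up to 1619 when GRKO Paneth replicate 1 was dropped. Leaving out a non-Paneth library, which is in neither group compared, gave 1 to 111 genes. The cause of these changes was not tested.

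In the other comparisons, library totals only gave 10785 genes (816 higher, 9969 lower) and 43 pathway genes between GRKO Paneth and GRKO non-Paneth cells, against 5116 and 25, and turned Bmp2 (-0.31), Rgmb (-0.28) and Tcf4 (-0.28) there. Leaving out 1 library gave 16 to 26 pathway genes in that comparison (16 without GRKO non-Paneth replicate 2) and 13 to 23 between GRKO and WT non-Paneth cells (13 without WT non-Paneth replicate 2). For the difference between the genotype effects it gave 1562 to 2610 genes and 6 to 12 pathway genes, both lowest without WT non-Paneth replicate 2, against 2445 and 10.

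With the replicate number as a block, 977 genes and 4 pathway genes were called between GRKO and WT Paneth cells, where the numbers do not pair the libraries (correlations of 0.0975, 0.156 and -0.098), and Id3 joined Thbs1 there. In the other comparisons the block changed no count by over 1.5 times. With it, Id2 joined the genes called between WT Paneth and WT non-Paneth cells, where the numbers pair the libraries, and between the GRKO cell kinds Id2 joined and Tgfbr2 left. The depth limits Bambi and Thbs1 in non-Paneth cells and Smad6 and Smad7 in Paneth cells, whose lowest counts per library were 15, 33, 16 and 34. Among the pathway genes it limits Bmp8a in WT Paneth and Tgfb1 in WT non-Paneth cells.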
